A study of Mus musculus with 9 samples.

Results

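Notch nuclear effectors and targets are here 8 genes, chosen by name for their roles in the pathway and with earlier results of these data known: Rbpj and Maml1, which act in the nucleus, the target genes Hes1, Hey1, Hey2 and Heyl, the feedback inhibitor Nrarp, and Lfng, which modifies the receptor. All 8 were found in a RefSeq gene table of the mm10 assembly, among 21887 protein-coding genes. For each gene, peaks were recorded at its annotated ends (1000 bp either side), in its body, and within 50 kb. Chromatin immunoprecipitation with sequencing (ChIP-seq) had been used to map the histone deacetylases Hdac1 and Hdac2 in haemogenic endothelium, the endothelial cells from which blood cells first emerge, made in culture from mouse embryonic stem cells. The series has 9 libraries from 3 C57BL/6 lines, labelled Bry (passages 16 to 19), Hd1_loxlox and Hd2lox (both passages 25 to 30). In each line there was 1 library with an Hdac1 antibody (Diagenode), 1 with an Hdac2 antibody (abcam) and 1 input library. The deposited Hdac1 list of Hd2lox spells its line as Hd2loxlox in its own name, and it was taken as Hd2lox by its sample labels. No line had been treated, and the labels do not spell out the alleles behind the line names. Each antibody therefore had n = 3 lines, with 1 library per line and antibody. Input libraries were not used here.

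The 6 ChIP libraries were each deposited as a list of peak positions, with 7671, 7490 and 7519 Hdac1 peaks in Bry, Hd1_loxlox and Hd2lox, and 9279, 5161 and 9082 Hdac2 peaks. The lists carry no counts or scores, so depth is unknown and missing peaks can reflect shallow sequencing. Peaks carry no expression either, so the cell type in the labels could not be checked against its markers. The Hd1_loxlox Hdac2 list stands apart, with peaks at the ends of 2.71% of protein-coding genes against 13.5% to 34.4% in the other 5 lists. The main counts and differences that rest on it are given with and without it. In a culture, fewer cells with a protein at a site and less protein per cell cannot be told apart.

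Notch signalling ends in the nucleus. A Notch receptor bound by a ligand on a neighbouring cell is cut by proteases of its own cell and releases its intracellular domain, which joins the DNA-binding protein Rbpj and the coactivator Maml1 to switch on targets such as the Hes and Hey genes, which encode transcriptional repressors. Without that domain, Rbpj sits with co-repressors that recruit histone deacetylases, and in the embryo the pathway is known for arterial identity and for the emergence of blood stem cells from haemogenic endothelium.

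Promoter sequences are shown for 4 of the genes whose listed start lay under peaks, to show the letters that Rbpj is known to recognise at genes that the peaks covered. The sequences are the 250 bases before a start site in RefSeq (GRCm38.p6), in the direction of the gene, and capitals mark TGGGAA, the core bound by Rbpj, or its reverse complement. The promoter table held 5 of the 8 genes: Rbpj, Maml1, Hey2, Nrarp and Lfng.
Rbpj, first of 2 listed starts, chr5:53590096-53590345, plus strand: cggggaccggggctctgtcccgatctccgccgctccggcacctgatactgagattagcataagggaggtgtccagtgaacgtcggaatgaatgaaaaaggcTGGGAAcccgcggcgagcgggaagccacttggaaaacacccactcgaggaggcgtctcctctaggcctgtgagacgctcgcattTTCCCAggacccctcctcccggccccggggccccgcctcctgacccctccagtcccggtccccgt
Lfng, chr5:140607091-140607340, plus strand: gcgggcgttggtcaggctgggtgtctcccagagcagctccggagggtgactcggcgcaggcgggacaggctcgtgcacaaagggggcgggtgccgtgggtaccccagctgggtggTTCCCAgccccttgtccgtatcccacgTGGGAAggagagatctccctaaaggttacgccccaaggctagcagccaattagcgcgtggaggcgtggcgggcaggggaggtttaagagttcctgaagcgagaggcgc
Hey2, chr10:30842784-30843033, minus strand: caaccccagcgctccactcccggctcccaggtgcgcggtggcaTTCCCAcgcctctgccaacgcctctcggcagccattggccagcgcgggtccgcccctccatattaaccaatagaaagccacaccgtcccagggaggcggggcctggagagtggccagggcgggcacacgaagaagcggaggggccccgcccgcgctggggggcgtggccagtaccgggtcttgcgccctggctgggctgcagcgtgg
Nrarp, chr2:25180508-25180757, plus strand: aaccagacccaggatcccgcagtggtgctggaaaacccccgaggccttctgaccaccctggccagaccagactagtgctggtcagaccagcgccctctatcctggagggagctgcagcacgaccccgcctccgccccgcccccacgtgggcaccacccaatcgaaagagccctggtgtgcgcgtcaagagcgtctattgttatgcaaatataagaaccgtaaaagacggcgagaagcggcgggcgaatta

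Both strands were searched for TGGGAA, its longer form GTGGGAA, the E box CACGTG, the N box CACNAG and the GC box GGGCGG. The longer form contains the core, and its first letters can overlap an E box. Rbpj held TGGGAA at 2 places, 149 and 65 bases before the first start. Lfng also held it at 2 places, 135 and 108 bases before its start, the second as GTGGGAA and overlapping a CACGTG. Hey2 held 1 match, 207 bases before its start, which was also GTGGGAA on the reverse strand. Maml1 and Nrarp held none, while Nrarp held 1 CACGTG, 108 bases before its start. TGGGAA was in 21.6% of the 32851 promoter windows of the same length in the table, GTGGGAA in 5.42%, CACGTG in 6.02%, CACNAG in 36.7% and GGGCGG in 32.7%. The GC box was in the windows of Maml1, Hey2, Nrarp and Lfng, and the N box in those of Nrarp and Lfng. A match describes the letters and is no measure of Rbpj binding, which was not assayed.

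Hdac1 lay at the ends of most of these genes in every line, and Hdac2 did so in Bry but less broadly in the other lines. For Hdac1, 5 of the 8 genes had an end peak in Bry, where 31.9% of all protein-coding genes had one. The count was 6 in Hd1_loxlox, where 31.7% of all genes had such a peak, and 6 in Hd2lox, where 24.3% did. Hdac2 was at the ends of 6 of the 8 genes in Bry (34.4% of all genes), 0 in Hd1_loxlox (2.71%) and 4 in Hd2lox (13.5%). An end peak in at least 2 of 3 lines was present at 6 genes for Hdac1 (30.2% of all genes) and at 3 for Hdac2 (10.6%). The 3 Hdac2 genes were Maml1, Hes1 and Nrarp, and the same 3 had both antibodies in at least 2 lines (9.32% of all genes). They were also the ones with end peaks in 5 of the 6 lists, all but Hdac2 of Hd1_loxlox, a pattern found at 6.24% of all genes. Hdac1 was at the ends of Maml1, Hes1, Hey1 and Nrarp in all 3 lines (14.6% of all genes), and Hdac2 at the ends of no member in all 3 (0.603%). Without the Hd1_loxlox Hdac2 list the Hdac2 count stayed at 3, which was fixed in advance, since that list had 0 of the 8 genes at an end. Without Bry or without Hd2lox the Hdac2 count was 0, since a gene then had to be in that list. Within 50 kb or in the gene, Hdac1 had peaks at 7 of the 8 genes in Bry (56.7% of all genes), 7 in Hd1_loxlox (55.8%) and 8 in Hd2lox (53.6%), and Hdac2 at 8 (61.2%), 4 (31.7%) and 6 (49.6%). The 8 genes had end peaks in a median of 3.5 lists and all protein-coding genes in a median of 0.

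**Figure D1:**
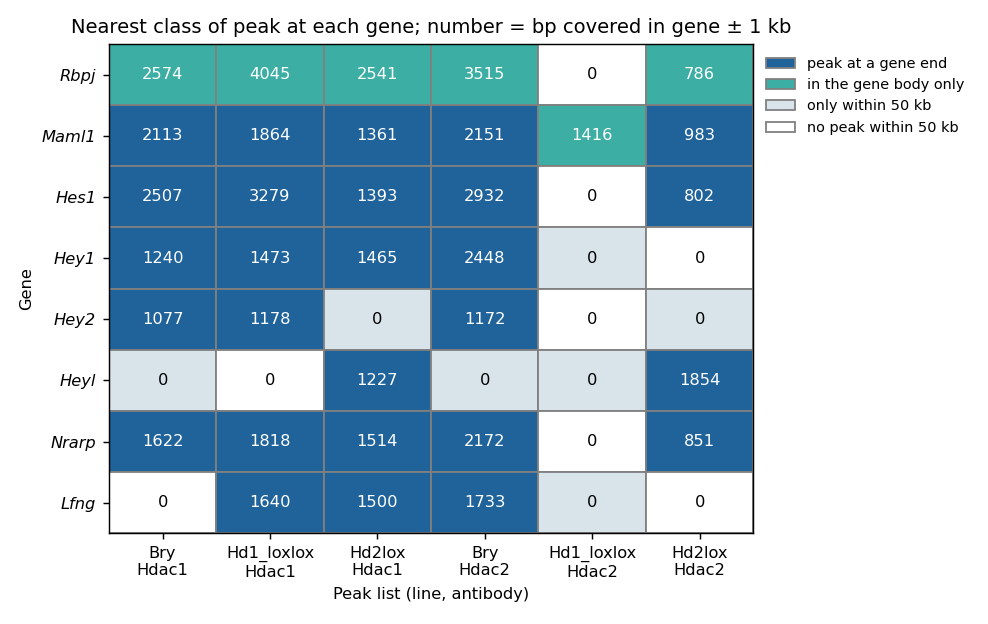
Peaks at the 8 genes (rows) in the 6 lists (columns), coloured by the closest class of peak, with the number of bp covered by peaks in the gene and 1 kb on either side. Hes1, Maml1 and Nrarp are at their ends in 5 lists, Rbpj is covered inside the gene in 5 lists, and the Hd1_loxlox Hdac2 column has no end peak.

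Rbpj, the DNA-binding protein of the pathway, had no peak at either annotated end in any list, as did 52.2% of protein-coding genes, and yet was covered in 5 lists. The gene spans chromosome 5, 53555779-53657445, and the lower edges of its peaks lay 32422 to 34523 bp inside the lower end. That place holds both start sites in the promoter table, at 53590346 and 53590486, and that table lists no start at the outer end. Hdac1 lay at 53588398-53590971 in Bry and at 53588201-53592245 in Hd1_loxlox. Hd2lox had a pair of Hdac1 peaks, at 53588566-53589768 and 53590302-53591639, with 533 bp between them. Hdac2 lay at 53588701-53592215 in Bry and at 53588765-53589550 in Hd2lox, where the peak ended 796 bp before the first start. The Hd1_loxlox Hdac2 list had no peak in the gene or within 50 kb. The interval common to the 5 lists was 53588765-53589550, upstream of both starts. A body peak away from the ends in at least 2 lines was found at 4.49% of all genes for Hdac1 and at 5.3% for Hdac2. Counted by listed start sites, Rbpj had a peak within 1000 bp in the same 5 lists, as did Maml1 and Nrarp, and a peak in 5 or more lists was found at 7.41% of the 17492 protein-coding genes with a listed start. By that rule all 5 listed genes had Hdac1 in at least 2 lines (31.3% of genes with a listed start) and 3 of them had Hdac2 (10.7%).

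Maml1, the coactivator that completes the Notch complex on DNA, lies on chromosome 11 at 50255634-50293131 on the minus strand, with its listed start at 50292336. The Hdac1 peaks covered that start in Bry (50290890-50293002), Hd1_loxlox (50290599-50292462) and Hd2lox (50291271-50292631). The Hdac2 peaks did so at 50290989-50293139 in Bry and 50291494-50292476 in Hd2lox. Both Bry peaks also came within 1000 bp of the end of Canx, the neighbouring gene for the chaperone calnexin. In all 5 lists most of the peak lay downstream of the start, with 842 to 1737 bp inside the gene and 126 to 803 bp before it. The Hd1_loxlox Hdac2 list had no peak there and instead held 2 narrow peaks deep in the gene, at 50265515-50266080 and 50276037-50276886. No other list had a peak at those places. Chromosome 11 held 15.5% of that list, 13.6% of the Hd1_loxlox Hdac1 list, and 6.47% to 10.1% of the other 4 lists, and the part of this in the result was not tested.

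The plot of the first group of loci places these peaks by their distance from the start or end of the gene.

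**Figure D2:**
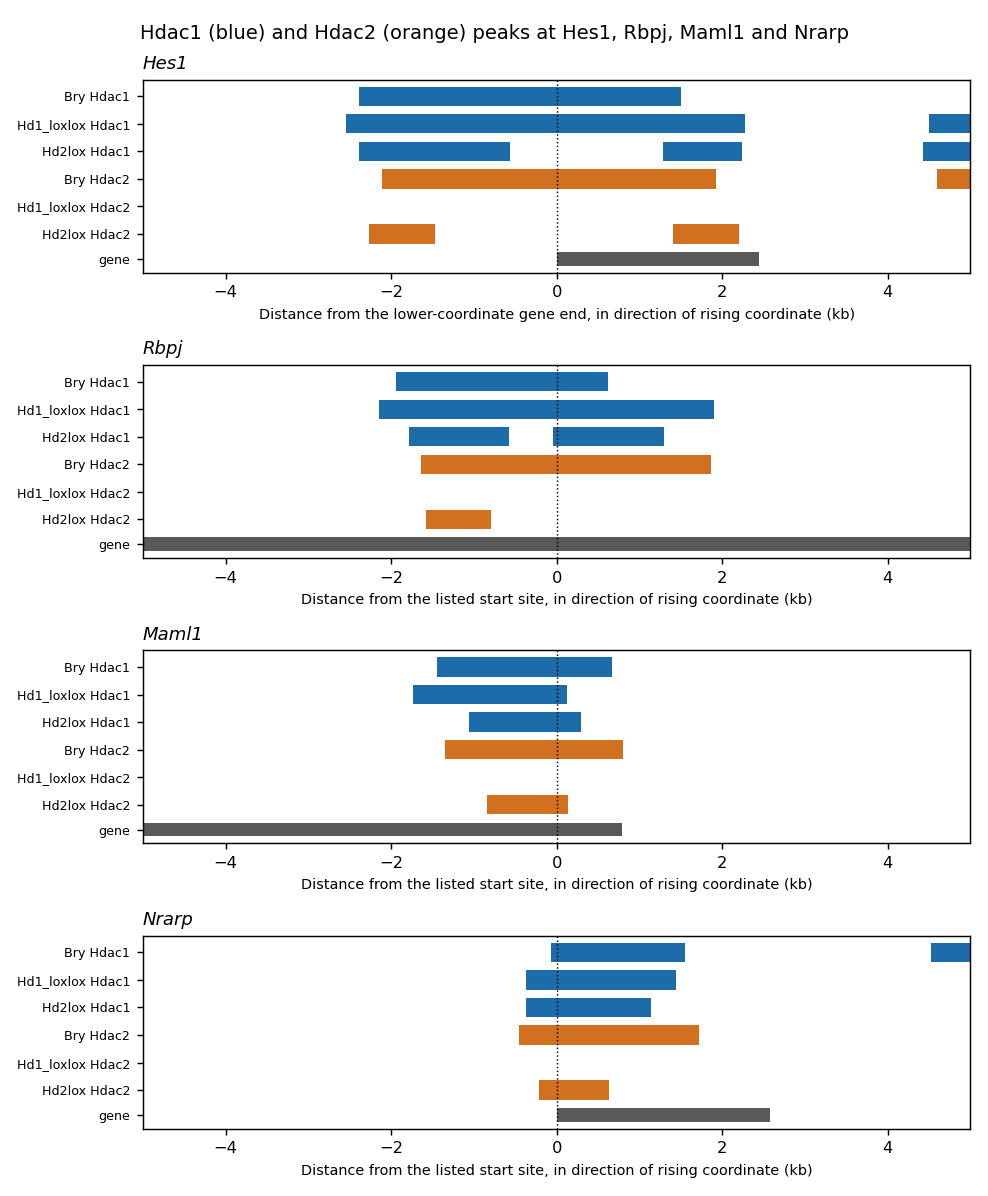
Hdac1 (blue) and Hdac2 (orange) peaks of each list within 5 kb of the lower end of Hes1 and of the listed start sites of Rbpj, Maml1 and Nrarp, with the gene in grey and the x axis in kb of rising coordinate. At Hes1 the single wide peaks of Bry and of Hd1_loxlox Hdac1 correspond to a pair of peaks in Hd2lox, with 1852 bp between them for Hdac1 and 2876 bp for Hdac2.

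Hes1, the repressor that is the classic Notch target, had wider peaks than the other 7 genes in both Bry lists and in the Hd1_loxlox Hdac1 list. The gene is 2440 bp long, on chromosome 16 at 30065357-30067796. Hdac1 covered 30062972-30066863 in Bry (3892 bp) and 30062813-30067635 in Hd1_loxlox (4823 bp), and Hdac2 covered 30063241-30067288 in Bry (4048 bp). These peaks were at the 99.5th, 99.8th and 99.7th percentile of width of their lists. Chromosome 16 held 4.35% of the Hd1_loxlox Hdac1 list, 6.47% of the Hd1_loxlox Hdac2 list and 3.09% to 3.17% of the other lists. The part of this in the result was not tested. In Hd2lox, Hdac1 lay at 30062969-30064791 and 30066644-30067601, and Hdac2 at 30063094-30063883 and 30066760-30067561. Neither Hd2lox list covered the lower end of the gene itself: the peak below the gene stopped 566 bp short of it for Hdac1 and 1474 bp short for Hdac2, so the gene counted for Hdac2 in Hd2lox only through the peak inside its higher end. The stretches common to the 5 lists were 30063357-30063883 and 30066760-30066863. The Hd1_loxlox Hdac2 list had no peak within 50 kb. The peaks at the higher end of Hes1 in all 5 lists also came within 1000 bp of the near end of the noncoding gene Gm32998, so they cannot be assigned to Hes1 alone. A further peak near the far end of Gm32998 was in 3 lists, at 30069958-30070827 for Hdac2 in Bry, 30069851-30070980 for Hdac1 in Hd1_loxlox and 30069784-30071079 for Hdac1 in Hd2lox.

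A pair of Hd2lox peaks under 1 wide Bry peak was uncommon. Of the 3743 Bry Hdac1 peaks that an Hd2lox Hdac1 peak overlapped, 18 (0.481%) were overlapped by 2 or more, and the Hes1 and Rbpj peaks were among them. For Hdac2 it was 18 of 2279 (0.790%), with Hes1 among them. Within the widest 5% of Bry peaks the shares were 4.36% (13 of 298) for Hdac1 and 4.48% (10 of 223) for Hdac2. This count was chosen after the peaks at Hes1 and Rbpj were seen, and it moves with the width of the Bry peak.

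The Hey genes, whose repressors are known from vessel and heart development, differed from each other by line. Hey1 (chromosome 3, 8663359-8667038) had Hdac1 at its higher end in all lines: the Bry peak was at 8666725-8667964, that of Hd1_loxlox at 8666445-8667917 and that of Hd2lox at 8666574-8668051. Hdac2 was there in Bry alone, at 8666233-8667856, with a second narrow peak in the gene at 8664386-8665209. The 4 end peaks also overlapped LOC115489673, a protein-coding model that begins inside Hey1, so they cannot be assigned to 1 of the pair. The Hd1_loxlox Hdac2 list had only a peak 39307 bp away, and the Hd2lox Hdac2 list had none within 50 kb.

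Hey2 and Heyl had peaks in different lines. Hey2 (chromosome 10, 30832359-30842783, minus strand) was covered at its start in Bry by Hdac1 at 30842352-30843428 and by Hdac2 at 30842254-30843425, and in Hd1_loxlox by Hdac1 at 30841956-30843133. No Hd2lox list had a peak at either end of Hey2 or inside it, and 8.45% of all genes had end peaks in the same 3 lists only. Heyl (chromosome 4, 123233556-123249870) had end peaks in Hd2lox only, for Hdac1 at 123233199-123234425 and for Hdac2 at 123233244-123234125, with a further Hdac2 peak inside the gene at 123239139-123240110. End peaks in both Hd2lox lists and no other were found at 1.72% of all genes. The Bry lists had peaks 32322 and 32480 bp from Heyl, at Pabpc4, a poly(A)-binding protein gene, and the Hd1_loxlox Hdac2 list had a peak 3986 bp below the gene. With 1 library per line and antibody, a difference between lines at a single gene has no replicate.

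**Figure D3:**
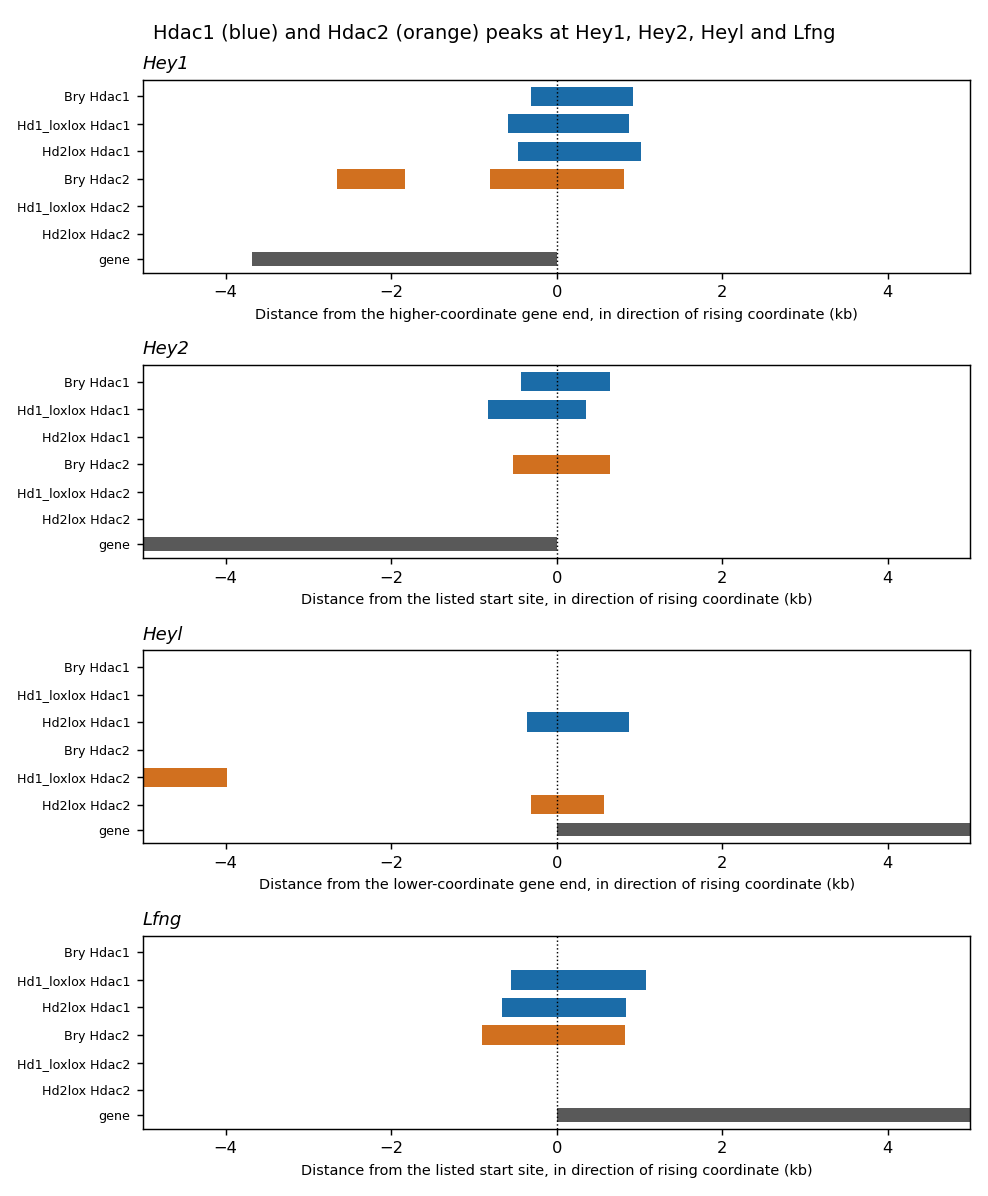
Hdac1 (blue) and Hdac2 (orange) peaks within 5 kb of the higher end of Hey1, the lower end of Heyl and the listed starts of Hey2 and Lfng, with the gene in grey and the x axis in kb of rising coordinate. Hey2 has peaks in Bry and in Hd1_loxlox Hdac1 and none in Hd2lox, and Heyl has end peaks in the Hd2lox lists only.

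Nrarp and Lfng act back on the pathway. Nrarp, an ankyrin-repeat protein induced by Notch that promotes turnover of the Notch intracellular domain, lies on chromosome 2 at 25180758-25183339. Hdac1 covered its start in Bry (25180692-25182313), Hd1_loxlox (25180382-25182199) and Hd2lox (25180384-25181897). Hdac2 covered it at 25180306-25182477 in Bry and 25180544-25181394 in Hd2lox, and the Hd1_loxlox Hdac2 list had no peak within 50 kb. The stretch common to the 5 lists, 25180692-25181394, began 66 bp before the start and so took in little of the promoter printed above. The peaks reached 636 to 1719 bp into the gene and 66 to 452 bp upstream.

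Lfng, a glycosyltransferase that adds sugar to Notch receptors and changes which ligands they answer, lies on chromosome 5 at 140607341-140615545. Hdac1 covered its start at 140606783-140608422 in Hd1_loxlox and 140606682-140608181 in Hd2lox, and Hdac2 at 140606436-140608168 in Bry. Each of the 3 peaks covered all 250 bases of the Lfng promoter with its 2 TGGGAA matches. Bry Hdac1 and Hd2lox Hdac2 had no peak within 50 kb, and the Hd1_loxlox Hdac2 list had one 36254 bp away. Lfng is thus the only member with Hdac2 and without Hdac1 in Bry, and end peaks in exactly these 3 lists were found at 0.676% of all genes. Coverage of the other printed promoters varied by list. The Nrarp promoter was covered over all 250 bases by Hdac1 in Hd1_loxlox and Hd2lox and by Hdac2 in Bry, over 214 bases by Hdac2 in Hd2lox and over 66 bases by Hdac1 in Bry. The Rbpj promoter was covered over all 250 bases in Bry for both antibodies and in Hd1_loxlox for Hdac1, and over 44 bases by Hdac1 in Hd2lox. The Hey2 promoter was covered over all 250 bases in the 3 lists that had a peak there.

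The amount of each gene covered by peaks was then compared between the antibodies, as bp in the gene with 1000 bp on both sides. At Hes1 it was 2507 bp (Bry), 3279 bp (Hd1_loxlox) and 1393 bp (Hd2lox) for Hdac1, and 2932, 0 and 802 bp for Hdac2. The means were 2393 ± 948 bp and 1245 ± 1515 bp (mean ± SD over 3 lines; exact permutation test, two-sided, p = 0.3). At Rbpj Hdac1 covered 2574, 4045 and 2541 bp in the same order of lines, and Hdac2 covered 3515, 0 and 786 bp (3053 ± 859 against 1434 ± 1845 bp, mean ± SD over 3 lines; p = 0.3 by exact permutation). For both genes the groups overlapped, since Bry Hdac2 lay above the Hdac1 values of Bry and Hd2lox.

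Nrarp had 1622, 1818 and 1514 bp for Hdac1, and 2172, 0 and 851 bp for Hdac2 (1651 ± 154 against 1008 ± 1094 bp, mean ± SD over 3 lines; p = 0.4 by exact permutation). Hey1 had 1240, 1473 and 1465 bp for Hdac1 and 2448, 0 and 0 bp for Hdac2 (1393 ± 132 against 816 ± 1413 bp, mean ± SD over 3 lines; p = 0.4 by exact permutation). Hdac1 coverage was thus close to even over the lines at Nrarp and Hey1, and Hdac2 coverage was not. Maml1 had 2113, 1864 and 1361 bp for Hdac1 and 2151, 1416 and 983 bp for Hdac2, the 1416 bp being the 2 body peaks of Hd1_loxlox (exact permutation p = 0.7, n = 3).

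The 3 genes with peaks in the fewest lists were at 0 bp in at least 1 list of each antibody. Lfng had 0, 1640 and 1500 bp for Hdac1 and 1733, 0 and 0 bp for Hdac2 (exact permutation p = 1, n = 3). Hey2 had 1077, 1178 and 0 bp against 1172, 0 and 0 bp (exact permutation p = 0.7, n = 3). Heyl had 0, 0 and 1227 bp against 0, 0 and 1854 bp, the only one of the 8 with a higher Hdac2 mean (exact permutation p = 1, n = 3). The sign at Hey1, Hey2, Heyl and Lfng turned under at least 1 other setting.

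No gene of the 8 had groups that did not overlap, and with 3 libraries against 3 the smallest p is 0.1, so none could pass 0.05. Over all protein-coding genes Hdac1 lay above Hdac2 with no overlap at 4.24% and below it at 0.151%. The exact permutation test with Benjamini-Hochberg adjustment over all 21887 genes called 0 genes, and 0 had an unadjusted p under 0.05. The Hdac1 mean was higher at 7 of the 8 genes and at 41.4% of all genes, and the Hdac2 mean was higher at 15.5% of all genes. Peaks covered some bp at all 8 genes but at only 12465 of the 21887 genes. Genes without coverage have neither mean higher, which lowers both shares of all genes, and they enter the all-gene median as 0 bp. The 7 of 8 therefore has no share of covered genes beside it, and it cannot be called higher than the background. The median of Hdac1 minus Hdac2 was 523 bp over the 8 genes and 0 bp over all genes. Without the Hd1_loxlox Hdac2 list it was 174 bp over the 8 genes and 0 bp over all genes. By gene that difference went from 1619.7 to 903 bp at Rbpj, from 1148 to 526 bp at Hes1 and from 643.7 to 139.8 bp at Nrarp. It went from 577 to 169 bp at Hey1, from 469 to 180.2 bp at Lfng, from 361 to 166 bp at Hey2, from 263 to 212 bp at Maml1 and from -209 to -518 bp at Heyl. Without Bry, Hdac1 lay above Hdac2 with no overlap at 5 of the 8, namely Rbpj, Hes1, Hey1, Nrarp and Lfng, and at 17.3% of all genes. At all 5 the Hd1_loxlox Hdac2 list had 0 bp, and at Hey1 and Lfng the Hd2lox Hdac2 list also had 0 bp. Leaving out the Hd1_loxlox Hdac2 list as well would keep only Hd2lox for Hdac2, and this was not done. The 17.3% is a share of all genes, those with no covered bp included.

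Within Bry alone the order differed. Bry Hdac2 covered more than Bry Hdac1 at 7 of the 8 genes, all but Heyl, which had 0 bp in both. All 6 genes with peaks in both Bry lists were among these, while 48.9% of the 6492 protein-coding genes with peaks in both Bry lists had more Hdac2. Among those 6 the excess was 38 bp at Maml1 and 95 bp at Hey2 and reached 1208 bp at Hey1. In Hd2lox Hdac1 covered more at 6 of the 8, all but Hey2, with 0 bp in both, and Heyl. That is 6 of the 7 genes with a peak there, against 80.4% of all protein-coding genes with a peak in either Hd2lox list, so the count is near the background. Hdac2 peaks were narrower in Hd2lox as a whole, with a median width of 822 bp against 1445 bp for Hdac1, and the part of this in the result was not tested.

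**Figure D4:**
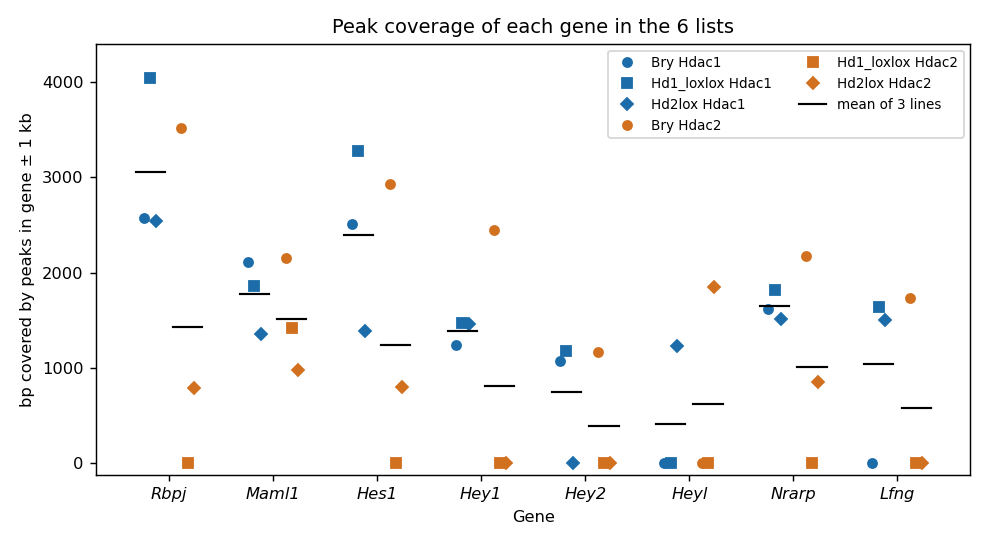
The bp covered by peaks in each gene with 1 kb on both sides (y axis), 1 point per list with the line as symbol and the antibody as colour, and a bar for the mean of 3 lines. Bry Hdac2 (orange circles) lies above Bry Hdac1 (blue circles) at 7 of 8 genes, and Hd1_loxlox Hdac2 (orange squares) is at 0 at all but Maml1.

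The other genes of the pathway, 60 in a list chosen with earlier results of these data known, carried Hdac1 at an end in at least 2 lines in 36 cases, and Hdac2 in 19, against 30.2% and 10.6% of all protein-coding genes. The Hdac2 count of 19 was 17 without Hd1_loxlox, 1 without Bry and 3 without Hd2lox, where a peak was needed in both lines that were left. It was 8 with peaks at or above the median width of their list, which left 23 for Hdac1. The Hdac2 counts by group below rest on the same 3 lists. End peaks in 5 or more lists were found at 15 of the 60 genes and at 1566 of the 21887 protein-coding genes. End peaks in no list were found at 7 of the 60 and at 52.2% of protein-coding genes, so a named gene in no list is in a common state. All 4 receptors had Hdac1 and Hdac2 at an end in at least 2 lines. Notch1, Notch2 and Notch4 and the ligands Jag1 and Jag2 were in 5 lists each, but the ligand Dll4 was in 1 and Dll1 in 2. Of 14 modifiers, 9 had Hdac1 and 5 had Hdac2. Rfng, the sister enzyme of Lfng, was in all 6 lists and Mfng, the other of the family, in none. Pofut1, which puts the first sugar on the receptor, the ubiquitin ligase Mib1, which acts on ligands, and Dtx4 were in 5, and Dtx2 was in none.

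Among 9 proteases 2 had Hdac1 and 1 had Hdac2, the latter Adam10, which makes the first cut in the bound receptor, in 5 lists. Psen2 and Aph1b, of the gamma-secretase that makes the second, were in none. Of 7 further coactivators, 6 had Hdac1 and 2 had Hdac2, and the acetyltransferases Ep300 and Kat2b were in 5 lists each. The co-repressors, through which Rbpj is linked to deacetylases, had Hdac1 at 10 of 13 and Hdac2 at 4. The 13 include the genes for Hdac1 and Hdac2 themselves, and the Hdac2 gene is among the 10. Spen, which binds Rbpj, Ctbp2 and Tle4 were in 5 lists, and Tle2 was in none. Of 8 other targets 3 had Hdac1 and 0 had Hdac2, and Hes2 and Hes3 were in no list. The groups were not tested against each other.

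**Figure D5:**
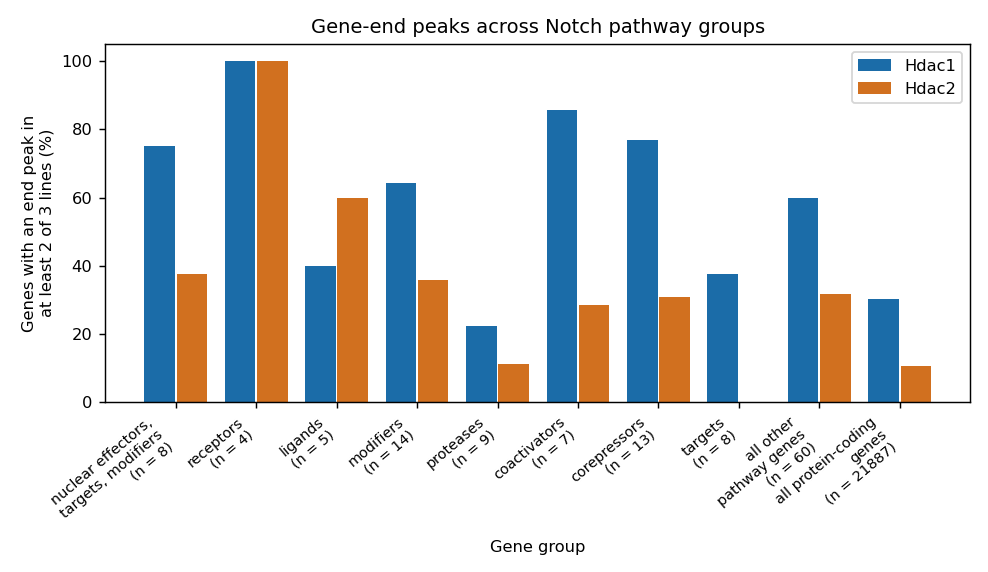
Share of genes (y axis, percent) with an end peak in at least 2 of 3 lines for Hdac1 (blue) and Hdac2 (orange), by group of Notch pathway genes, with the number of genes under each group. Of the 8 nuclear effectors, targets and modifiers, 6 have Hdac1 and 3 have Hdac2, and the last pair of bars gives 30.2% and 10.6% for all protein-coding genes.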

How the data were processed

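The deposited values are positions: per the submitters' processing notes the authors used bcl2fastq, Bowtie2 2.2.9, SAMtools 1.3.1 and MACS2 2.1.1.20160309 with the mm10 build, and each of the 6 ChIP libraries has its own list of peak starts and ends, with no score. The sources used here do not give the threshold or the use of input. Genes and promoters came from RefSeq tables of GRCm38.p6, the same assembly; the gene table gives outer ends without strand. Starts were converted to 1-based positions.

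A peak was at a gene end when it overlapped 1000 bp either side of it by 1 bp or more, and in the body when it overlapped the gene but no end window. Covered bp were compared by exact permutation, two-sided (Benjamini-Hochberg over all protein-coding genes). Interval code was tested on simulated peaks. Python 3.11.15, numpy 2.4.6 and pandas 2.3.3 were used.

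Hdac1 and Hdac2 libraries of the same line are paired, since the labels name the line. Deviations of covered bp from the antibody mean correlated across 12465 genes at 0.288 (Bry), -0.0414 (Hd1_loxlox) and 0.424 (Hd2lox). Between different lines the correlations ran from -0.388 (Hd2lox Hdac1 with Bry Hdac2) to 0.229 (Hd1_loxlox Hdac1 with Bry Hdac2). The latter was above the same-line value of Hd1_loxlox. The replicates are different lines, and Bry differs from the others in passage too. A p-value therefore covers line, passage and technical spread together, which cannot be told apart. The genes, lists and tests were chosen with earlier results of these data known. The 8 genes are all named; of the other pathway genes, those in 5 or more lists or in none are, plus Dll1 and Dll4, chosen after their values were seen. Other windows, stricter peaks, start sites, left-out lines and pairing were tried.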

Additional observations from a re-analysis of the deposited data

How the results depend on the processing

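The number of the 8 genes with Hdac1 at an end in at least 2 lines was 4 to 7 under all settings tried, against 6, and 4 to 5 when a line was left out and both others were required. The Hdac2 count of 3 was 1 when at least 50% of the peak had to lie in the window, 0 when all 3 lines were required, and 0 to 3 when a line was left out, with 3 without Hd1_loxlox. That last count could not differ, since the Hd1_loxlox Hdac2 list had 0 of the 8 genes at an end. Windows of 500, 2000 and 5000 bp gave 2, 3 and 4, and counting gene bodies too, a setting chosen after seeing the data, gave 4. Of the 60 other pathway genes, peaks at or above the median width of their list left 23 for Hdac1 and 8 for Hdac2, and leaving out a line gave 26 to 30 and 1 to 17. Shares of all protein-coding genes under these other settings are given only for all 3 lines and for start sites, in the Results. The remaining counts therefore cannot be set against other genes. With lines left out, 0 to 5 of the 8 genes had antibodies whose covered bp did not overlap. The 5 were found without Bry, and the Hd1_loxlox Hdac2 list had 0 bp at each of them. With the line as replicate block, 0 of the 8 genes had the same sign in all 3 lines, and the paired sign-flip permutation p (exact, smallest possible 0.25) was 0.5 for Rbpj, Maml1, Hes1, Hey1 and Nrarp and 1 for the others. Hdac1 minus Hdac2 turned to 115 bp at Heyl in end windows and to -53.0 bp at Hey1 with those wider peaks. Leaving out a line gave -47.5 to 589 bp at Hey2 and -116.5 to 1570 bp at Lfng, with -47.5 and -116.5 bp without Hd1_loxlox and -46.5 bp at Lfng without Hd2lox. The cause was not tested. The start-site setting covered 5 of the 8 genes only. Depth is unknown, so absent peaks set no upper limit.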

Other observations

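Of 82 peaks in or within 50 kb of the 8 genes, 28 lay at gene ends, 10 in gene bodies and 44 nearby. The nearby peaks formed 23 regions, of which 8 were in 3 or more lists. A region on chromosome 10 at 30801131-30803807, 28552 bp from Hey2, was in 5 lists and lay over a listed start of Ncoa7, a nuclear receptor coactivator gene, so both Hd2lox lists had a peak there although they had none at Hey2. Near Maml1, a region at 50224284-50226230 was in 5 lists, at the facing ends of Mgat4b, a glycosyltransferase gene, and the noncoding Gm36556. Regions at Sqstm1, an autophagy receptor gene (50209499-50211461), and at the far end of Canx (50324765-50326763) were each in both Bry lists and the Hd1_loxlox Hdac1 list. So were a region at Ltc4s, the leukotriene C4 synthase gene (50236403-50239116), and one at 50212627-50213978 at no gene end. At Ltc4s the Bry Hdac1 peak ended at 50237590 and the Bry Hdac2 peak began at 50237570, so they met only at their edges. Of the peaks in that region, only the Bry Hdac2 peak covered the listed Ltc4s start. A region 32267 bp from Lfng, at 140647812-140649548 over a listed start of Ttyh3, was in the same 3 lists as the end peaks of Lfng.

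The genes most like each member in bp covered at their ends, over the 6 lists, were found by the smallest summed absolute difference. For Hes1 they were Gcat, which acts in threonine breakdown (974 bp summed difference), and Gm33851 (1386 bp). For Nrarp they were Tmem198 (216 bp) and Ywhab, a 14-3-3 protein gene (264 bp). Those for Maml1 were Uck2, a uridine-cytidine kinase gene (521 bp), and BC034090 (586 bp). For Hey1 they were Ddx20, an RNA helicase gene (61 bp), and LOC115489673, which shares its peaks (154 bp).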
